A study of Mus musculus with 2 samples.

Results

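The genes described here are type I interferon stimulated genes, a list of 41 mouse genes picked by symbol. Of these, 39 matched a gene among the 32285 in the deposited count matrices. Mx1 and Mx2, the other listed genes, were not analysed here. Type I interferons are secreted cytokines that signal through the receptor chains Ifnar1 and Ifnar2 and the kinases Jak1 and Tyk2. The signal assembles a transcription factor complex that holds Stat2 and Irf9 and binds a sequence called the interferon-stimulated response element. The target genes encode sensors of viral nucleic acid, antiviral effectors and regulators of the pathway itself, and in tumours their levels are read as a trace of interferon exposure.

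The study sequenced single CD45+ cells, that is leukocytes, sorted from B16-F10 tumours grown in mice. B16-F10 is a mouse melanoma cell line, and DGAT1 is an enzyme that makes triglyceride from diacylglycerol. One group carried DGAT1-knockout tumour cells and the other WT control tumour cells, and 3 tumours per group were taken at day 14 after injection. Each group is 1 droplet library, and no map from cells to tumours was used here, so the tumours cannot be set against each other. The edit lies in the implanted tumour cells and the sorted cells come from the host. The sources used here do not say whether the knockout line was 1 clone. No test between the groups exists with 1 library per group. Every interval below is an exact 95% interval that covers counting error only, and no difference between cell classes was tested.

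Depth was 202946827 UMIs for the DGAT1-knockout sample and 235652476 for WT. Filtering kept 10951 knockout cells with a median of 10765 UMIs and 9065 WT cells with a median of 14159 UMIs, and 24 barcodes occurred in both. The labels give the cell type as melanoma, but the CD45 gene Ptprc stood between 395 and 2833 CPM (UMIs of a gene relative to all UMIs of its class and library, in counts per 1e6) in 11 of the 12 classes compared. The class that passed a gate on pigment cell genes had 14.7 and 21.8 CPM of Ptprc in the knockout and WT library. In that class Dgat1 itself stood at 18.2 CPM (15.2 to 21.6) in the knockout and at 28.9 CPM (26.9 to 30.9) in the WT library. The UMIs count transcript ends and no source names the edited stretch, so this value does not check the edit. Melanoma marker genes, summed, were lower in the knockout library in each of the other 11 classes, for example at 93.5 and 296 CPM in neutrophils and at 21.3 and 71.6 CPM in CD8 T cells, and their part in the results was not tested. Cells were sorted into 15 classes by gates on marker genes, and 12 classes had at least 50 cells in each library. CD4 T cells (186 and 42 cells), gamma-delta T cells (39 and 25) and plasmacytoid dendritic cells (142 and 46) were too few in WT or in both libraries and are not compared.

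To show the sequence that the pathway acts through, RefSeq promoters (250 bases before to 50 after the start, build GRCm38.p6, the NCBI release of mm10) were searched for the core of the response element, that is GAAA, any 2 bases and again GAAA, on both strands with overlapping matches counted. A promoter was held for 30 of the 39 members. The letters occurred in 18 of these 30 (60%), against 1079 of 27025 genes (3.99%) in the whole table. In 16 members a match lay before the start. The following stretches, 5′ to 3′ on the strand of the gene, belong to members that the results below turn on, with the matched letters in capitals. A run of TTTC is the same element read on the opposite strand.

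Isg15, chr4:156200855-156200916, minus strand: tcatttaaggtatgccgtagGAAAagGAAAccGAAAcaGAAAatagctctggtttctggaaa
Ifit1, chr19:34640765-34640833, plus strand: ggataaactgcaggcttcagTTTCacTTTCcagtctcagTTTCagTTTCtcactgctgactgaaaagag
Ifit3, chr19:34583353-34583436, plus strand: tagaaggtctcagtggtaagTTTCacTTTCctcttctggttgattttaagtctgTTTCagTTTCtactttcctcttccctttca
Ifit1bl1, chr19:34602043-34602092, minus strand: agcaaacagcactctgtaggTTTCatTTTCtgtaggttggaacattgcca
Rsad2, chr12:26456543-26456592, minus strand: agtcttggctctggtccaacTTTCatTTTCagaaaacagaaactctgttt
Slfn5, chr11:82951927-82951976, plus strand: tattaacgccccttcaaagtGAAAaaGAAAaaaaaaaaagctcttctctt
Slfn8, chr11:83020829-83020878, minus strand: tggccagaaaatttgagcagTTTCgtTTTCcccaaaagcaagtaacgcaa
Trim30a, chr7:104465200-104465249, minus strand: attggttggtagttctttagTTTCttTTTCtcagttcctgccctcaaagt
Phf11b, chr14:59341351-59341400, minus strand: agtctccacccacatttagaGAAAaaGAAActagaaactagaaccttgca

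Isg15 held 3 overlapping matches, 56 to 78 bases before its start, and Ifit1 and Ifit3 held 2 each. The stretch of Ifit3 was identical to that of its neighbour Ifit3b. Members that were higher and members that were lower in the knockout library of a class both appear among these stretches. A match is a description of the letters, not a measured binding site.

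The level of the members differed widely between cell classes. Neutrophils, the short-lived phagocytes marked by S100a8 and S100a9, had 21746 CPM of the 39 members in the knockout library, the highest sum there, and 14435 CPM in the WT library. Classical monocytes had 14713 and 15366 CPM, which made them the highest class in the WT library. Below both came non-classical monocytes with 11429 and 10305 CPM, macrophages with 8501 and 8804 CPM, and conventional type 2 dendritic cells (cDC2) with 7386 and 7625 CPM. CD8 T cells were lowest with 1890 and 2158 CPM. By single gene, 24 members in the knockout and 17 in the WT library were highest in neutrophils, and 11 and 16 in classical monocytes. The same class was highest in both libraries for 28 of 39 members.

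Isg15, which encodes a ubiquitin-like protein conjugated to other proteins (ENSMUSG00000035692, chr4:156199424-156200818 in the GENCODE vM21 annotation), shows the order of the classes. It stood at 2991 and 2213 CPM in knockout and WT neutrophils, at 1302 and 1731 CPM in classical monocytes and at 783 and 874 CPM in macrophages. At the low end it stood at 58.1 and 100.1 CPM in CD8 T cells and at 35.75 and 39.01 CPM in B cells. The order neutrophil, classical monocyte, macrophage held in both libraries, while the gap between the first and the next class was wider in the knockout library. Outside the list, the genes whose log2 CPM over the 12 classes and both libraries (24 points) most resembled the mean of the members were Rnf213 (Pearson r 0.95), Socs3 (0.95), C3 (0.94), Lamp2 (0.94) and Cstb (0.94). The points share 2 libraries, so these values are a description.

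**Figure D1:**
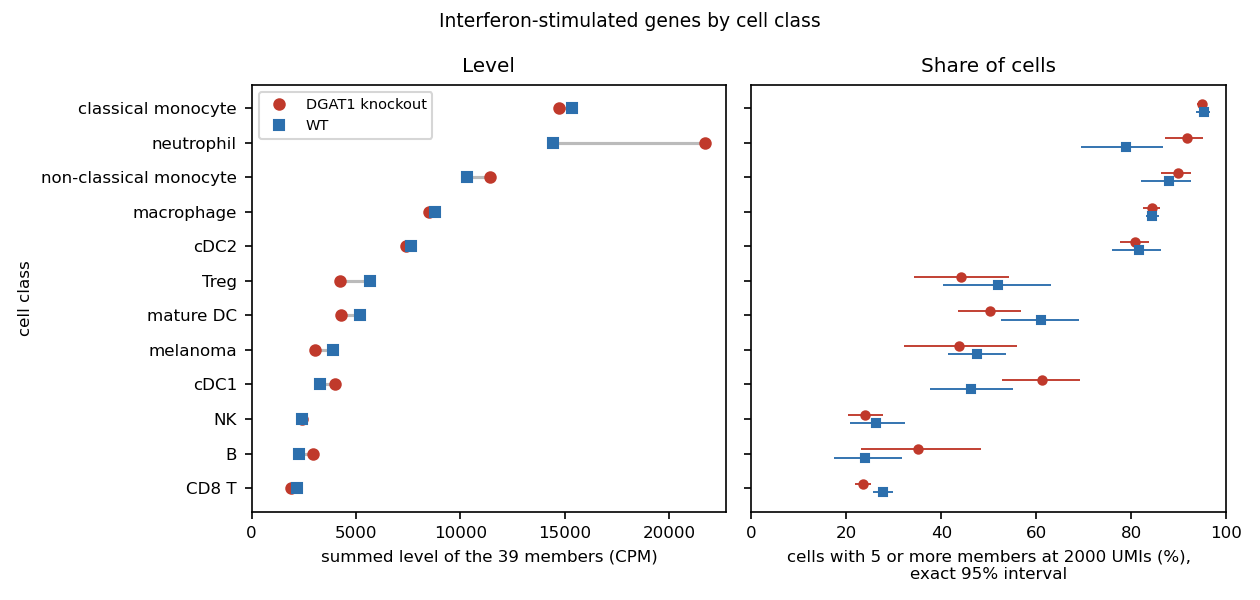
Left, summed level of the 39 members in CPM by cell class (circles, DGAT1 knockout library; squares, WT library). Right, percent of cells with 5 or more members detected after thinning each cell to 2000 UMIs, with exact 95% intervals; neutrophils stand at 21746 and 14435 CPM and at 91.7% and 78.9% of cells.

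In neutrophils the members stood higher in the knockout library as a group. A member was counted as measured in a class with at least 50 UMIs over both libraries, and its ratio is the knockout CPM over the WT CPM. Of 36 measured members, all 36 had a log2 ratio above 0, with a median of 0.61 against -0.01 over all 3863 genes measured in that class. At least 1.5-fold higher were 18 members and at least 1.5-fold lower were 0, where 10.6% of all genes in the class were higher and 10.6% lower by that fold. The counting interval lay above a ratio of 1 for 29 of the 36. The class held 209 knockout and 96 WT cells with median depths of 4417 and 4523.5 UMIs.

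Among the sensors, Ifi204, a nuclear DNA-binding protein of the HIN-200 family, stood at 927 CPM in knockout and 532 CPM in WT neutrophils (log2 ratio 0.80, ratio interval 1.52 to 1.99). Zbp1, a sensor of Z-form nucleic acid, stood at 422 and 238 CPM (0.82). Ddx58, the RNA helicase RIG-I, stood at 319.5 and 186 CPM (0.78), while its relative Ifih1 (MDA5) was at 187 and 139 CPM (0.42). Of the 7 measured sensors, 5 were past 1.5-fold. Ifih1 and Dhx58, the helicase LGP2, lay within it.

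Of the 3 measured factors that carry the signal, 1 was past 1.5-fold. Irf7, the factor that amplifies interferon alpha transcription, stood at 369 CPM in knockout and 236 CPM in WT neutrophils (log2 ratio 0.64). Stat2 stood at 182 and 139 CPM (0.38), and Irf9 at 165 and 134 CPM (0.30), both with intervals that include a ratio of 1. Usp18, the protease that removes Isg15 from proteins and dampens the receptor, stood at 283 and 161 CPM (0.82).

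Among the effectors, Parp14, an ADP-ribosyltransferase (ENSMUSG00000034422, chr16:35832874-35871544), had the interval farthest from 1. It stood at 761 CPM in knockout and 372 CPM in WT neutrophils (log2 ratio 1.03, ratio interval 1.75 to 2.41). Slfn5, a Schlafen family protein, stood at 815 and 420 CPM (0.96, interval 1.67 to 2.26), and its relative Slfn8 at 287 and 137 CPM (1.06, interval 1.61 to 2.74). Oas2, an oligoadenylate synthetase whose product activates an RNA-cutting enzyme, stood at 227 and 105 CPM (1.12, interval 1.61 to 2.97). Trim30a, a tripartite-motif protein, stood at 1152 and 662 CPM (0.80), and Cmpk2, a mitochondrial nucleotide kinase, at 292 and 149 CPM (0.97). The highest log2 ratio, 1.90 for Phf11b, rested on 57 and 7 UMIs. It became -0.34 when neutrophils were taken as a cluster in place of a gate, and 42.6% of the 50-base windows at its transcript end are shared with other genes, most with Phf11c.

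Other effectors covered a range of ratios. Isg15 had a log2 ratio of 0.43 (ratio interval 1.26 to 1.45). Rsad2, the gene of viperin, stood at 3034 and 2039 CPM (0.57), and Ifit1, which binds foreign RNA ends, at 915 and 531 CPM (0.79). Bst2, the membrane tether tetherin, stood at 194 and 178 CPM (0.12) and Oas1a at 65.9 and 62.0 CPM (0.09), the lowest log2 ratio of the class. Both intervals include a ratio of 1.

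The share of neutrophils with many members pointed the same way. Its intervals lay just apart after thinning to 2000 UMIs and overlapped at 1000 UMIs (74.7 to 85.9% and 55.9 to 75.7%). After each cell was thinned to 2000 UMIs, 91.7% of 205 knockout neutrophils (87.1 to 95.1%) and 78.9% of 95 WT neutrophils (69.4 to 86.6%) had 5 or more members. Left out as too shallow were 4 and 1 cells, and without thinning the shares were 96.7% and 91.7%. The same thinned share among CD8 T cells, which have low member levels, was 23.4% and 27.65%, at median depths of 18491 and 22485 UMIs. The median cell had 17433 CPM of members in the knockout and 10647 CPM in the WT library, and 10% of cells lay below 4351 and 1667 CPM. The 10 cells with the most member UMIs held 16.3% of them in the knockout and 34.3% in the WT library.

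The gate took cells with at least 30 UMIs of S100a8 and S100a9 per 10000 and a UMI of Csf3r, Cxcr2 or Retnlg, and 11 of the 305 cells lay within 25% above that minimum. The 5 neutrophil markers summed to 46625 CPM in the knockout and 46716 CPM in the WT library. The 5 classical monocyte markers were all detected, at 967 and 600 CPM, and the 5 macrophage markers at 192 and 440 CPM. As medians over cells, the monocyte markers stood at 2.45 and the macrophage markers at 1.76 per 10000 UMIs, against 343 for the neutrophil markers. Without cells that held a UMI of a monocyte or macrophage gate gene, 83 knockout and 22 WT cells remained, with a median log2 ratio of 0.60 and 15 of 30 measured members at least 1.5-fold higher. The share of all genes past that fold was not computed for these cells. Single members moved in these cells: Slfn5 stood at 1.81 and Cmpk2 at 1.85, while Oas2 (0.57) and Ifi204 (0.49) were no longer past 1.5-fold. The median was lowest with neutrophils taken as a cluster, at 0.45. Restricting cells to barcodes above the UMI threshold left 21 and 4 neutrophils and gave no value.

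**Figure D2:**
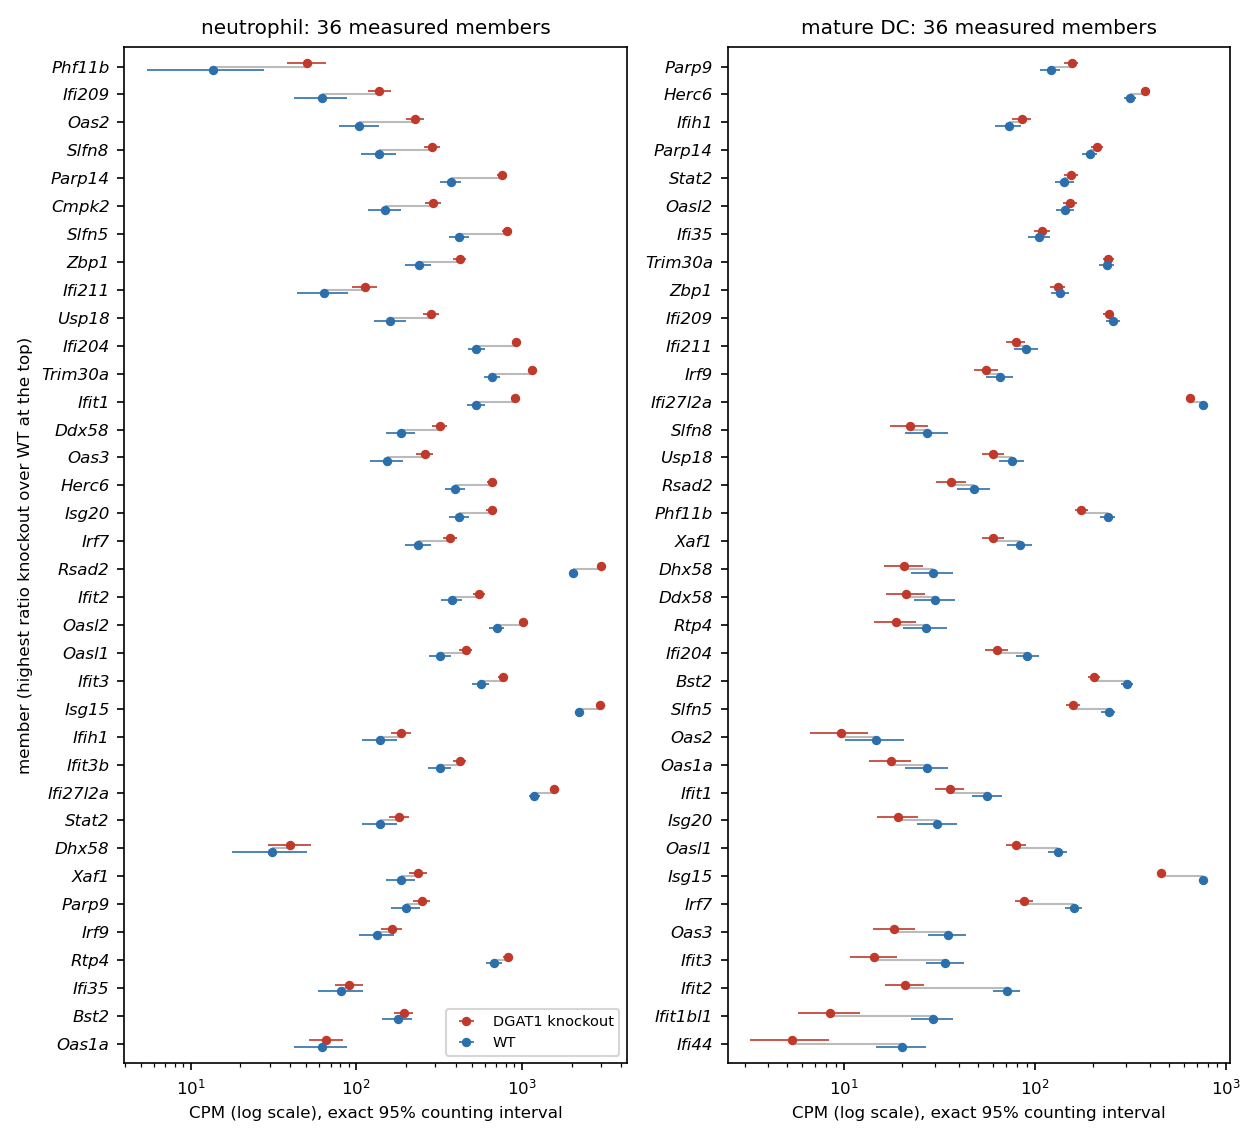
CPM (log axis) of each measured member in neutrophils and in mature dendritic cells, with exact 95% counting intervals (red, DGAT1 knockout library; blue, WT library), ordered by the ratio. In neutrophils all 36 members stand to the right in the knockout library, and in mature dendritic cells 28 of 36 stand to the left.

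In mature dendritic cells, the Ccr7 and Fscn1 positive cells that migrate to lymph nodes, the members stood lower in the knockout library. Of 36 measured members, 28 had a log2 ratio below 0, with a median of -0.48 against 0.08 over all 7911 genes measured. At least 1.5-fold lower were 13 members, against 4.9% of all genes, and 0 were at least 1.5-fold higher, against 8.72% of all genes. All 5 measured RNA-binding effectors and 4 of 5 oligoadenylate synthetase family members were among the 13. The class held 234 knockout and 144 WT cells.

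Ifit2, an RNA-binding effector (ENSMUSG00000045932, chr19:34550694-34576419), stood at 20.8 CPM in knockout and 70.9 CPM in WT mature dendritic cells (log2 ratio -1.77, ratio interval 0.22 to 0.39). Ifit1bl1, a relative of Ifit1, stood at 8.45 and 29.0 CPM (-1.78), and Ifit3, which partners the other Ifit proteins, at 14.4 and 33.9 CPM (-1.24). Ifi44 stood at 5.35 and 20.05 CPM, on 19 and 45 UMIs (-1.91). These 4 members were at low levels in both libraries and had the lowest ratios of the class.

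The better covered members were lower by less. Isg15 stood at 455 CPM in the knockout and 753 CPM in the WT library (log2 ratio -0.73, ratio interval 0.57 to 0.65). Irf7 stood at 87.3 and 159 CPM (-0.86). Oasl1, which in mice holds back translation of Irf7, stood at 79.4 and 131 CPM (-0.72), and Slfn5 at 159 and 242 CPM (-0.61). Not all members followed: Herc6, the mouse ligase that attaches Isg15, stood at 376 and 314 CPM (0.26), and Stat2 at 154 and 142 CPM (0.11). None of the 7 sensors was past 1.5-fold. Single ratios moved with the processing. With the mean of per-cell CPM Oasl1 stood at -0.35 and Slfn5 at -0.32, and with clusters Isg15 stood at -0.57 and Ifit3 at -0.39, all within 1.5-fold. Others moved away from 0: Slfn5 to -0.81 and Irf7 to -1.13 with barcodes above the UMI threshold alone, and Isg15 to -0.84 with doubled gate minimums.

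The thinned share of mature dendritic cells with 5 or more members was 50.2% (43.6 to 56.8%) of 233 knockout and 61.1% (52.6 to 69.1%) of 144 WT cells, with 1 and 0 cells left out. Unthinned shares were 95.7% and 97.9%. The intervals overlap. The median cell had 2622 CPM of members in the knockout and 2737 CPM in the WT library, while the 10 cells with the most member UMIs held 22.0% and 35.9% of them. The summed macrophage markers in this class were 63.9 and 185 CPM, with 5 of 5 detected, and the melanoma markers 31.0 and 135 CPM, with 5 of 5 detected. Both moved with the members and their part in the result was not tested. With the class taken as a cluster the median was -0.12 and 5 members were at least 1.5-fold lower, so the size of the difference depends on the class definition.

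Conventional type 1 dendritic cells (cDC1), marked by Xcr1 and Clec9a and specialised in cross-presentation, had higher member levels in the knockout library. Of 35 measured members, 12 were at least 1.5-fold higher, against 10.8% of all genes, and 1 was lower, against 3.82%. The median log2 ratio was 0.36 against 0.10 over all 8724 genes. The class held 143 knockout and 136 WT cells.

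Parp14 had an interval far from 1 in this class too, at 184 CPM in the knockout and 103 CPM in the WT library (log2 ratio 0.84, ratio interval 1.56 to 2.06). Of the 5 measured oligoadenylate synthetase family members, 4 were past 1.5-fold. Oasl2 stood at 58.7 and 29.7 CPM (0.98), Oas3 at 22.9 and 8.85 CPM (1.37) and Oas2 at 19.6 and 8.54 CPM (1.20). Herc6 stood at 135 and 79.0 CPM (0.77) and Ifi204 at 131 and 76.8 CPM (0.77). The member lower in the knockout library was Rsad2, at 13.8 and 24.7 CPM (-0.83).

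The cDC1 result depended on which cells were taken. In the knockout library 19.6% of the gated cells lay in the cluster led by the cDC2 genes Cd209a and Mgl2, against 2.94% in the WT library. The members summed to 7386 and 7625 CPM in cDC2 and to 4007 and 3276 CPM in cDC1. The summed cDC2 markers in cDC1, 5 of 5 detected, were 601 and 479 CPM. The part of these cells in the result was not tested. With clusters in place of gates, the median was 0.22 and 2 members were at least 1.5-fold higher, and with doubled gate minimums 4 were. Rtp4, a chaperone of membrane receptors with 54 and 19 UMIs, went from a log2 ratio of 1.60 to -0.31 with clusters. The thinned share of cells with 5 or more members was 61.3% (52.7 to 69.3%) of 142 knockout and 46.3% (37.6 to 55.1%) of 134 WT cells, with 1 and 2 cells left out and 98.6% and 99.3% unthinned.

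In classical monocytes, macrophages and cDC2 the members as a group stood near 0. No measured member passed 1.5-fold in either direction in classical monocytes, macrophages or cDC2, with 39 measured in each. Over all genes, 5.8% were higher and 3.64% lower by that fold in classical monocytes, 6.67% and 6.23% in macrophages, and 7.2% and 2.85% in cDC2. The medians of the members were -0.01, -0.01 and 0.01, and those of all genes 0.07, -0.02 and 0.09. In classical monocytes 19 members lay above a log2 ratio of 0 and 20 below.

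The spread within classical monocytes went in both directions. Lower in the knockout library were Isg15 (log2 ratio -0.41, ratio interval 0.74 to 0.77), Bst2 at 470 and 648 CPM (-0.46) and Irf7 at 428 and 512 CPM (-0.26). Higher were Herc6 at 419 and 299 CPM (0.49), Oas2 at 177 and 127 CPM (0.48) and Slfn8 (0.53). In macrophages Oas2 stood at 75.9 and 54.2 CPM (0.49), Herc6 at 194 and 156 CPM (0.31) and Isg15 at -0.16. Bst2 (-0.27), Irf7 (-0.26) and Slfn8 (0.40) in macrophages stood on the same side of 0 as in classical monocytes.

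Classical monocytes and macrophages were made up differently in the libraries. The cluster led by Pid1, Spon1 and Klra2 held 47.0% of knockout and 33.0% of WT classical monocytes, and the cluster led by Arg1, Spp1 and Mmp12 held 32.0% and 47.0%. The largest cluster of macrophages was the latter in the knockout library (28.3%) and one led by Ms4a7 and C1qa in the WT library (27.4%). Within the 3 largest clusters of classical monocytes the median log2 ratio was 0.05, 0.12 and 0.33. Within the 7 clusters of macrophages compared it lay between -0.24 and 0.52, with 13 of 34 members at least 1.5-fold higher in the cluster led by Pf4, Selenop and Mrc1 (40 knockout and 66 WT cells). The median of all genes in that cluster was 0.07. The share of all genes past 1.5-fold was not computed there, so the 13 cannot be set against it.

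Non-classical monocytes, here cells gated on Ace and Treml4, had a median log2 ratio of 0.21 over 38 members, against 0.09 over all genes. The gate did not bar cells with classical monocyte markers. Those markers, 5 of 5 detected, summed to 5996 and 6548 CPM in this class, against 5236 and 5649 CPM in classical monocytes. The 6 non-classical markers summed to 826 and 881 CPM, so the class is not cleanly apart from classical monocytes. Slfn8 (0.60) and Oas2 (0.61) were at least 1.5-fold higher, against 9.1% of all genes. Isg20, an RNA exonuclease (-0.74), Ifit1bl1 (-0.62) and Rsad2 (-0.60) were at least 1.5-fold lower, against 4.32% of all genes. With clusters in place of gates, 785 knockout and 304 WT cells stood for the class. Of these, 301 and 136 were gated non-classical monocytes and 374 and 126 gated classical monocytes. In that cluster 6 members were higher and 0 lower, with Rsad2 at 0.44 and Isg20 at 0.04. Rsad2 stood at -0.06 among its gated non-classical monocytes and at 0.48 among its gated classical monocytes.

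**Figure D3:**
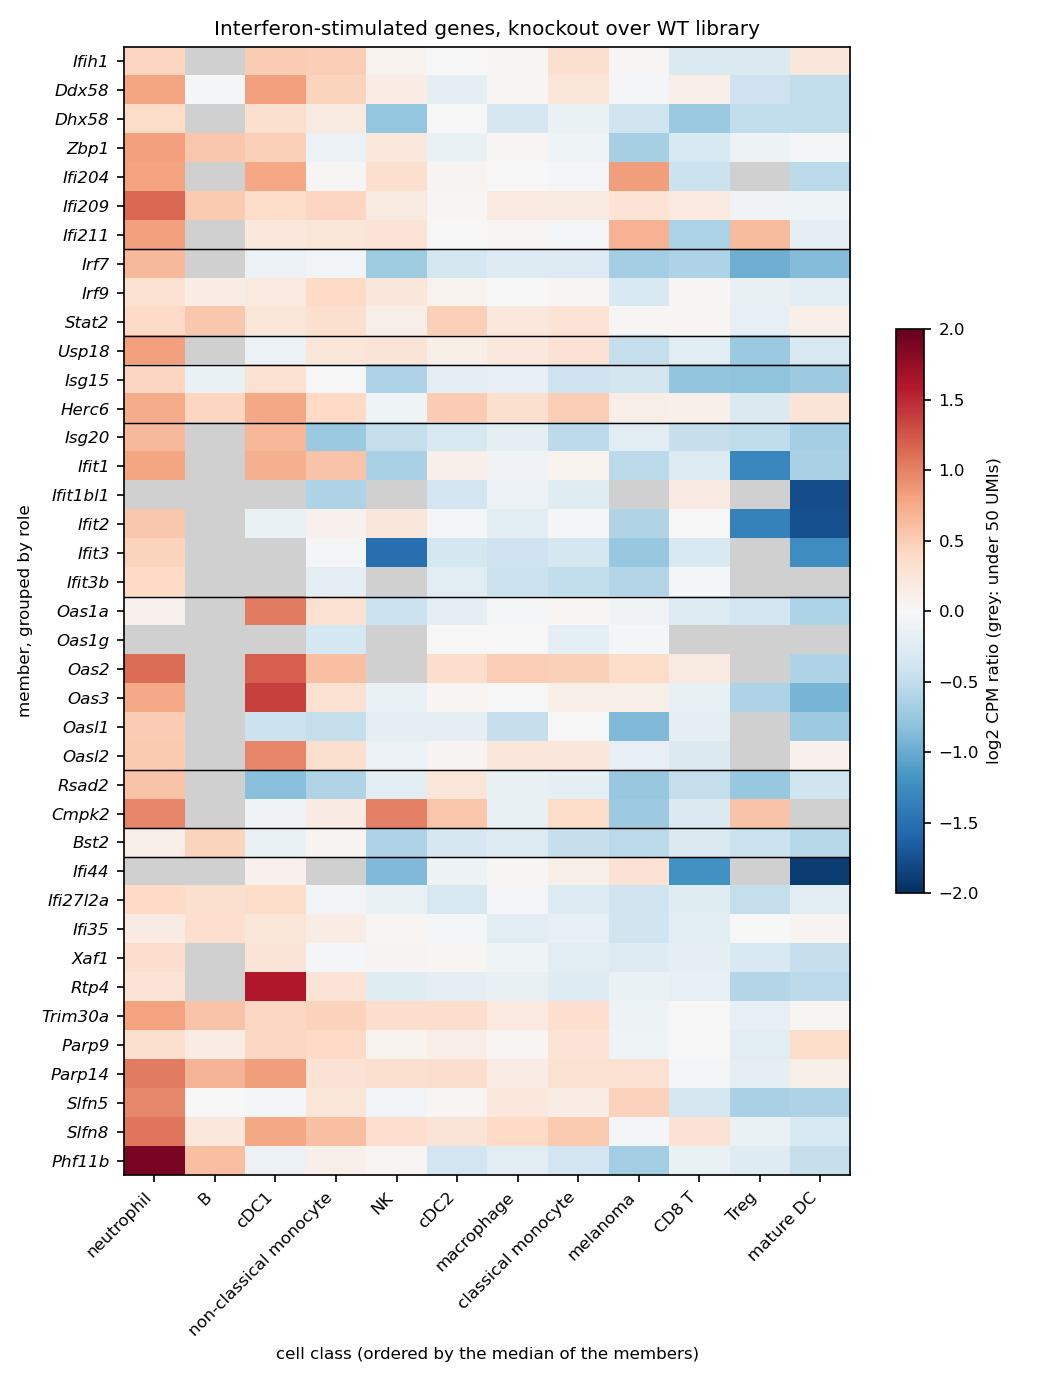
Log2 CPM ratio, knockout over WT library, of each member (lines, grouped by role) in each of the 12 cell classes (columns, ordered by their median). Red is higher and blue lower in the knockout library, grey marks under 50 UMIs; the neutrophil column is red for all 36 measured members.

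In CD8 T cells, the class with the lowest sum of the members, 27 of 38 measured members had a log2 ratio below 0, with a median of -0.21 against 0.04 over all 13260 genes. At least 1.5-fold lower were 5 members, against 7.51% of all genes, and 0 were higher, against 3.11%. Isg15 stood at 58.1 and 100.1 CPM (-0.78, ratio interval 0.56 to 0.61), Irf7 at 20.2 and 31.1 CPM (-0.62) and Dhx58 at 10.4 and 17.3 CPM (-0.74). The others were Ifi44 (-1.21, 40 and 82 UMIs) and Ifi211 (-0.63). Of the windows at the transcript end of Ifi211, 77.4% are shared with Ifi205, so its count is uncertain. With doublets kept the median was -0.00, 1 member was lower and 2 were higher. Within the 3 clusters that held most CD8 T cells Isg15 stood between -0.88 and -0.46, and at 0.23 in a smaller cluster led by Xcl1. Summed macrophage markers, 5 of 5 detected, were 37.5 and 88.0 CPM in this class, and their part in the result was not tested.

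Regulatory T cells had 28 of 30 measured members below 0, with a median of -0.35 against 0.03. At least 1.5-fold lower were 8 members, against 6.34% of all genes, and 1 was higher (Ifi211, 47 and 19 UMIs, with an interval that includes a ratio of 1), against 7.05%. Ifit1 stood at 22.0 and 54.4 CPM (-1.31, ratio interval 0.28 to 0.58), Ifit2 at 15.8 and 40.5 CPM (-1.36), Irf7 at 32.8 and 64.3 CPM (-0.97) and Isg15 at 118 and 207 CPM (-0.81). The class held 102 and 81 cells, and the 10 cells with the most member UMIs held 27.4% and 33.3% of them. With barcodes above the UMI threshold alone (82 and 41 cells), a cut set higher in the WT library, the median was 0.03 and 2 members were lower. The macrophage markers were at 28.2 and 80.3 CPM, and their part in the result was not tested.

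NK cells had a median of 0.04 against 0.10 over all genes, so the group as a whole stood near 0. At least 1.5-fold lower were 7 members, against 3.16% of all genes, and 1 was higher, against 7.55%. Ifit3 stood at 12.5 and 35.5 CPM (-1.51), Isg15 at 84.0 and 129 CPM (-0.62) and Bst2 at 105 and 160.2 CPM (-0.61). Cmpk2 was the member higher in the knockout library, at 14.6 and 7.28 CPM (ratio interval 1.14 to 3.71). With barcodes above the UMI threshold alone (191 and 40 cells), a cut set higher in the WT library, 6 members were higher and 1 lower. Ifit3 then stood at 0.18. The neutrophil markers summed to 17.3 and 215 CPM in NK cells, and their part in the result was not tested.

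B cells had 16 measured members, with a median of 0.38 against 0.07 over all genes. At least 1.5-fold higher were 2 members, against 11.6% of all genes, and 0 were lower, against 6.54%. Parp14 stood at 243 and 152 CPM (0.68, ratio interval 1.23 to 2.07), and the other was Phf11b (0.60). With 61 and 146 cells the class gives wide intervals, and 4 of 16 lay above a ratio of 1. Of the members' UMIs in knockout B cells, 46.6% came from 10 cells, against 26.1% in the WT library. Classical monocyte markers (1034 and 503 CPM, 5 of 5 detected in both), cDC1 markers (164 and 25.004 CPM) and NK markers (62.0 and 7.001 CPM) were higher in the knockout library too, and B cell markers were lower (2798 and 4166 CPM). Their part in the result was not tested.

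The cells that passed the melanoma gate carry pigment cell genes as tumour cells do, although the sort was for CD45. Of 38 measured members 9 were at least 1.5-fold lower, against 9.37% of all genes, and 2 were higher, against 5.81%, with a median of -0.20 against 0.01. Ifit3 stood at 142 and 240.2 CPM (-0.76, ratio interval 0.55 to 0.63), Rsad2 at 121 and 203 CPM (-0.75), Zbp1 at 106 and 168 CPM (-0.67) and Cmpk2 at 22.3 and 36.8 CPM (-0.72). Higher were Ifi204, at 51.7 and 29.1 CPM (0.83), and Ifi211, at 41.3 and 25.5 CPM (0.70). The class held 89 and 325 cells, and the 10 cells with the most member UMIs held 38.9% and 16.5% of them. With the mean of per-cell CPM several of these members came within 1.5-fold. Ifit3 then stood at -0.30, Rsad2 at -0.43, Zbp1 at -0.39, Cmpk2 at 0.080 and Ifi211 at 0.45, while Ifit2 stood at -0.80. The summed macrophage markers, 5 of 5 detected, were 66.3 and 174 CPM, and their part in the result was not tested.

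Followed across the classes, members went different ways. Isg15 had a log2 ratio below 0 in 10 of 12 classes, Bst2 in 9 of 12, Rsad2 in 9 of 11, Irf7 in 10 of 11, Oasl1 in 9 of 10 and Ifit3 in 8 of 9. Neutrophils were among the exceptions for each of these 6 genes. Stat2 stood above 0 in 11 of 12 classes, Parp14, Herc6 and Trim30a in 10 of 12, and Oas2 in 8 of 9. These 6 genes span from 1.40 kb (Isg15) to 14.7 kb (Oasl1), and the other 5 from 19.5 kb (Oas2) to 83.6 kb (Herc6). The 11 were picked for their signs, and other members break that order: Rtp4 (93.9 kb) was below 0 in 8 of 11 classes, Phf11b (20.4 kb) in 8 of 12 and Ifit2 (25.7 kb) in 7 of 11, while Irf9 (6.46 kb) was above 0 in 9 of 12.

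Over all genes the ratio also moved with gene length. In classical monocytes the median log2 ratio was -0.19 for genes under 5 kb and 0.25 for genes of 60 kb or more. Spearman's rho between the log2 ratio and length in that class was 0.64 over the 39 members and 0.39 over all genes. It was 0.56 and 0.24 in macrophages and 0.30 and 0.04 in neutrophils. The share of UMIs on ribosomal protein genes, which are short, was lower in the knockout library in 11 of the 12 classes, for example 8.79% and 10.5% in classical monocytes and 3.55% and 4.61% in neutrophils. These are correlations across genes of the same 2 libraries, and the part of gene length in the member ratios was not tested. With each member centred on genes of like length, 3 in place of 7 members were lower in NK cells.

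**Figure D4:**
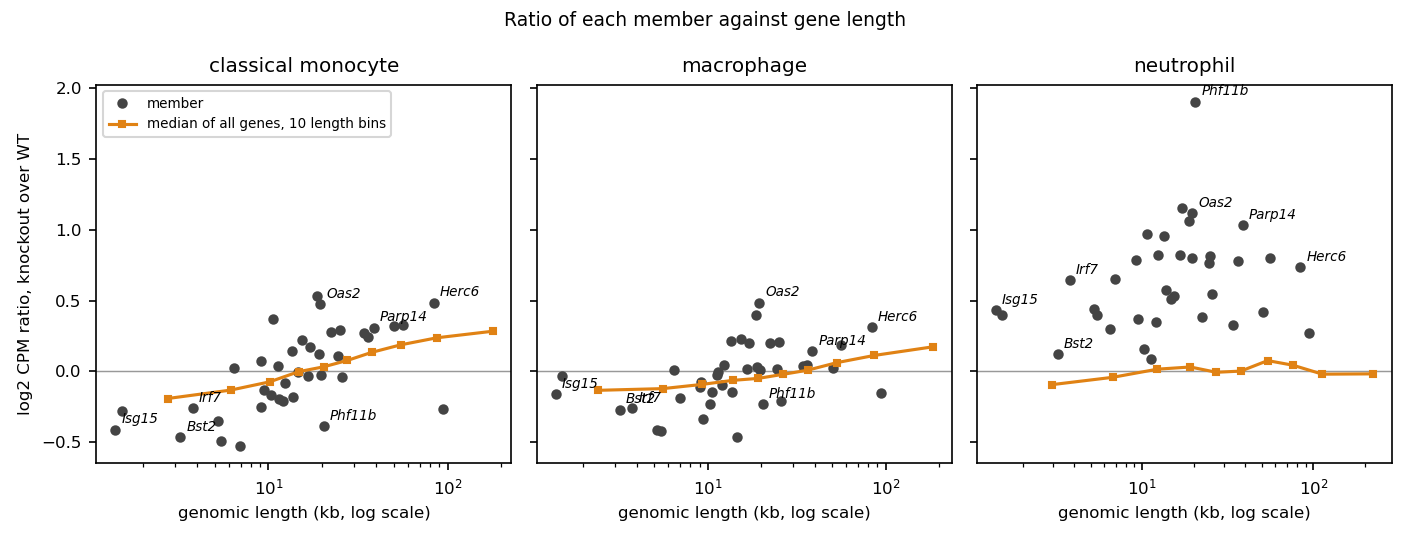
Log2 CPM ratio, knockout over WT library, of each member (points) against the genomic length of its gene in kb (log axis) in classical monocytes, macrophages and neutrophils. Squares joined by lines are the medians of all genes in 10 bins of length. They climb in classical monocytes and in macrophages and stay near 0 in neutrophils, where all members lie above 0.

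The rest of the pathway was described from lists of ligands, receptor chain, upstream sensors, inhibitors and genes that lean towards interferon gamma, the type II interferon. Shares of all genes past 1.5-fold in each class are those given above. Of 9 ligands, only Ifnb1, the gene of interferon beta, was measured, and only in macrophages. It stood at 16.5 CPM (15.1 to 18.02) in knockout and 17.6 CPM (16.6 to 18.6) in WT macrophages. Its UMIs came from 52 of 1560 cells (3.33%) and 125 of 2843 cells (4.40%), and the 10 cells with the most held 66.4% and 51.0% of them. In CD8 T cells, which should lack it, 0.43% and 0.78% of cells had a UMI, at median depths of 18491 and 22485 UMIs against 16634.5 and 21805 in macrophages. Most Ifnb1 UMIs lay in the cluster led by Nos2 and Mmp12, at 88.3 and 68.0 CPM in 48 of 258 and 100 of 694 cells.

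Of the receptor chains and kinases Ifnar1, Ifnar2, Jak1 and Tyk2, none was at least 1.5-fold lower in a class where it was measured, and the only call in the other direction was Tyk2 in mature dendritic cells, at 144 and 90.02 CPM (log2 ratio 0.67). Of 5 inhibitors, 1 was at least 1.5-fold higher in neutrophils, regulatory T cells, non-classical monocytes and mature dendritic cells, 2 were in cDC1, and 0 were lower in any class. Socs1, an inhibitor of the kinases, stood at 111 and 42.6 CPM in neutrophils (1.39) and at 103 and 56.3 CPM in cDC1 (0.87). Of 15 genes that sense nucleic acid upstream of the ligands, 1 of 7 measured was higher in neutrophils (Samhd1, a nucleotide hydrolase, 0.60) and 0 were past 1.5-fold in classical monocytes, macrophages, cDC2 and melanoma cells. Higher were 2 of 11 in NK cells (Myd88, 0.97, and Irf5, 0.59) and 1 each in regulatory T cells, B cells, non-classical monocytes, cDC1 and mature dendritic cells. In CD8 T cells 2 of 13 were lower, Tlr3 (-1.97) and Tlr7 (-0.62).

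Genes that lean towards interferon gamma stood higher in cDC1, neutrophils and B cells. In cDC1, 8 of 9 measured were at least 1.5-fold higher (median log2 ratio 0.96), among them Gbp2, a guanylate-binding protein, at 182 and 49.6 CPM (1.87) and the chemokine gene Cxcl9 at 832 and 259 CPM (1.68). With clusters in place of gates, which leave out the cDC2 cluster that held 19.6% and 2.94% of the gated cells, 8 of 9 were higher (median 0.95). With doubled minimums 7 of 9 were (median 1.51). The part of the cDC2 cluster in these values was not tested. In neutrophils 5 of 9 were higher and 1 lower (median 0.85), with Gbp2 at 1063 and 531 CPM. In B cells 4 of 7 were higher and 0 lower (median 0.90), and in melanoma cells 3 of 10 were higher and 1 lower (median 0.20). In mature dendritic cells, where the members stood lower, 1 of 9 was higher and 0 lower (median 0.18). Several of these genes also respond to type I interferon, and the signals were not told apart here.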

How the data were processed

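Count matrices of UMIs per gene and droplet were deposited by the authors, as raw counts for 2 libraries. Reads were counted with Cell Ranger 7.2.0, per the file headers, on mm10, per the submitters' processing notes. No source used here names the annotation. The matrices held all barcodes, so cells were called here: barcodes above a UMI threshold (8013 in the knockout and 13685 in the WT library) plus smaller ones whose profile differed from free RNA (droplets of at most 100 UMIs, false discovery rate 0.01). Cells with under 250 genes or over 10% mitochondrial UMIs were dropped, and Scrublet doublets removed (3.28% and 1.71% of cells, where loading predicts 9.06% and 7.38%, so some doublets may remain). Free RNA was estimated at 2.52% and 2.38% of UMIs.

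Cells were gated by marker genes, none a member, and the UMIs of each class were added up within a library and scaled to CPM. Ratios have exact conditional binomial intervals and levels exact Poisson intervals. Shares have exact binomial (Clopper-Pearson) intervals. Clusters were made without the member genes (scanpy 1.11.5, Leiden resolution 1.0). Code was tested on simulated data. The text names, per class, up to 8 members at least 1.5-fold different with an interval that leaves out 1, ordered by the bound nearest to 1, plus members whose direction differs between classes and leading genes by role. The members and lists were chosen with earlier results of these data known. Alternatives covered cell calling, filters, doublets, scaling, depth, free RNA, weighting and class definition. Of the 39 members, 25 share no 50-base window in the last 500 bases of their transcripts with another gene and 32 share under 10%. Ifi211, Ifi209, Oas1a, Phf11b, Oas1g, Slfn8 and Ifit3 share more and are uncertain. A gene of the pathway lists is not reported here.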

Additional observations from a re-analysis of the deposited data

Results flagged for a closer look

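For 11 members the ratio lay past 1.5-fold with an interval that leaves out 1 in opposite directions in a pair of cell classes. Each difference below is between log2 ratios of the same 2 libraries and was not tested. Against neutrophils, where the member was higher in the knockout library, Ifit1 differed most from regulatory T cells (0.79 and -1.31, a difference of 2.09), as did Usp18 (0.82 and -0.74, a difference of 1.56). Irf7 was lower in mature dendritic cells (0.64 and -0.86, a difference of 1.51), and so was Slfn5 (0.96 and -0.61, a difference of 1.57). In the melanoma class Zbp1 (0.82 and -0.67, a difference of 1.496), Cmpk2 (0.97 and -0.72, a difference of 1.69) and Phf11b (1.90 and -0.69, a difference of 2.59) were lower. Isg20 was lower in non-classical monocytes (0.65 and -0.74, a difference of 1.39).

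Between dendritic cell classes, Oas3 was higher in cDC1 and lower in mature dendritic cells (1.37 and -0.92, a difference of 2.30), and Oas1a likewise (1.04 and -0.64, a difference of 1.68). Ifi211 was higher in the melanoma class and lower in CD8 T cells (0.70 and -0.63, a difference of 1.33). The cDC1 values rest on a gate that took cells of the cDC2 cluster in the knockout library. The transcript ends of Oas1a, Ifi211 and Phf11b share windows with other genes, so their values are uncertain. Among the sides that were recomputed, a side of 4 of these pairs changed sign, under 1 alternative each. Usp18 in regulatory T cells stood at 0.25 with barcodes above the UMI threshold alone. Isg20 in non-classical monocytes stood at 0.037 with clusters, where gated classical monocytes were taken in too. Cmpk2 in melanoma cells stood at 0.080 with the mean of per-cell CPM, and Phf11b in neutrophils at -0.34 with clusters. Other sides kept their sign but came within 1.5-fold. With the mean of per-cell CPM these included Slfn5 in mature dendritic cells (-0.32) and, in melanoma cells, Zbp1 (-0.39) and Ifi211 (0.45). With doublets kept Ifi211 in CD8 T cells stood at -0.36. Single ratios were not recomputed for every member in every class, so the remaining pairs were not shown to hold under all alternatives.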

How the results depend on the processing

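Counts of members past 1.5-fold rest on 1 library per group and on class definitions, and counting error alone moves small counts. Depth limits the members with few UMIs, for example in B cells, where 16 of 39 were measured. Of 516 recomputed class values, 430 moved by less than their limit and 86 by more. The limit was 1.5-fold for a count and the counting half-width for a share of cells. For a median it was the typical counting half-width of a single member, which is wide for a median. The regulatory T cell median that turned sign with barcodes above the UMI threshold alone counted as within it. Of 607 recomputed single ratios, 526 moved by less than their own counting half-width, 68 by more and 13 changed sign. The cause of each shift was not tested. In neutrophils every median lay between 0.45 and 0.74. No paired analysis was possible because each group is 1 library and the labels give no shared replicate.

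At 2-fold in place of 1.5-fold, lower members numbered 1 in CD8 T cells, 2 in regulatory T cells, 1 in NK cells, 4 in mature dendritic cells, and 0 in non-classical monocytes, cDC1 and melanoma cells. Higher members at 2-fold numbered 5 in neutrophils, 4 in cDC1, and 0 in regulatory T cells, B cells, non-classical monocytes and melanoma cells. The CD8 T cell difference in the thinned share of cells, -4.21 percentage points, was -1.35 with 8 or more members and -1.48 at 1000 UMIs, where that of non-classical monocytes went from 1.79 to 8.51. With at most 5% mitochondrial UMIs 2 members were higher in regulatory T cells and 6 in B cells, and 1 was lower in non-classical monocytes. Matched depth gave 2 higher in regulatory T cells. Centred on the median of all genes, 1 member was higher in B cells, 0 in non-classical monocytes, and 1 lower in classical monocytes.

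With clusters in place of gates, some classes took in cells of other gates. The cluster taken for regulatory T cells (310 and 143 cells) also held 129 and 22 gated CD4 T cells. That taken for non-classical monocytes (785 and 304 cells) also held 374 and 126 gated classical monocytes. Lower members numbered 15 in the regulatory T cell cluster and 0 in the non-classical monocyte cluster. They numbered 2 in macrophages, 2 in cDC1, 3 in cDC2 and 5 in mature dendritic cells. Higher members numbered 0 in NK cells, 1 in B cells, 6 in non-classical monocytes and 2 in cDC1. The median became 0.10 in classical monocytes, -0.11 in macrophages, -0.17 in cDC2 and -0.12 in mature dendritic cells. The cluster led by Arg1, Spp1 and Mmp12 was given to no class in this setting. It held 32.0% and 47.0% of the gated classical monocytes and 28.3% and 24.6% of the gated macrophages. The macrophage clusters held 749 and 1988 cells, against 1560 and 2843 gated cells. Rtp4 in cDC1 turned to -0.31, Phf11b in neutrophils to -0.34, and in non-classical monocytes Rsad2 to 0.44 and Isg20 to 0.037. With doublets kept, the CD8 T cell median was -0.00102, with 2 members higher and 1 lower. Regulatory T cells then had 2 higher and 3 lower, NK cells 2 and 4, and B cells 5 and 2, and Slfn5 turned to 0.11 in regulatory T cells.

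With free RNA subtracted, 9 members were lower in CD8 T cells, and 2 were higher in regulatory T cells and 4 in B cells. With doubled gate minimums, 2 were higher in regulatory T cells, 7 in non-classical monocytes and 4 in cDC1. Lower were 4 in NK cells, 0 in non-classical monocytes, 2 in cDC1 and 2 in cDC2. Rtp4 turned to -0.15 in cDC1 and Ifit1bl1 to 0.44 in non-classical monocytes. With the mean of per-cell CPM, higher members numbered 2 in regulatory T cells, 0 in NK cells, 5 in B cells and 2 in cDC2. Regulatory T cells then had 3 lower, and Cmpk2 turned to 0.080 in melanoma cells. With at least 10 UMIs per member, 2 were higher in NK cells and 12 in B cells, and 4 lower in B cells and 2 in cDC1. With at least 200, regulatory T cells had 0 higher and 1 lower, NK cells 0 and 3, cDC1 5 and 0, B cells 1 higher, and mature dendritic cells 6 lower.

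The UMI threshold was 8013 in the knockout and 13685 in the WT library, so cells above it are not alike in depth between the libraries. With barcodes above the UMI threshold alone, regulatory T cells had 2 lower and NK cells 6 higher and 1 lower. Classical monocytes had 3 higher with a median of 0.16, and non-classical monocytes 7 higher. Ifit3 (0.18) and Ifit1 (0.35) turned in NK cells, Usp18 (0.25) and Slfn5 (0.049) in regulatory T cells, and Ifit1bl1 (0.72) in non-classical monocytes. B cells and neutrophils were too few for a value there. The following alternatives were chosen after seeing the data. Centred on genes of like length, regulatory T cells had 0 higher, NK cells 3 lower and non-classical monocytes 1 higher. With each cluster weighted alike, classical monocytes had a median of 0.11 and 1 higher, macrophages a median of -0.064, and non-classical monocytes 0 lower. The neutrophil values without monocyte and macrophage gate genes stand with the neutrophil results, and those of the interferon gamma list with clusters and doubled minimums beside that list.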
